A study of Mus musculus with 28 samples.

Results

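The effect of an Lmo2 transgene on thymocyte RNA was compared between 2 successive stages, so that each gene has 1 value, the log2 effect of the transgene at DN4 minus its log2 effect at DN2/3. This value, called the stage dependence below, rests on 18 of the 28 libraries of the study, those labelled Wild type or Lmo2tg, which were taken by genotype label and not by a measured value. The study sequenced RNA of mouse thymocytes of 3 genotypes and 2 subsets, and its title asks whether Ldb1 is needed for the self-renewal and leukemia that Lmo2 brings about. The groups used were Wild type DN2/3 (n = 4), Wild type DN4 (n = 4), Lmo2tg DN2/3 (n = 5) and Lmo2tg DN4 (n = 5). The wild type was C57BL/6, and Lmo2tg mice carried an Lmo2 transgene whose promoter no source used here names. The remaining 10 libraries, from Lmo2tg mice that also lack Ldb1, served only in an alternative fit. DN2/3 and DN4 are double-negative thymocytes, which carry neither CD4 nor CD8 on the surface, although the labels also name the cells CD4 T cells. Age was not given, and nothing states that replicates were separate animals, so each p-value reflects only how these libraries vary, which may be technical.

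Lmo2 is an adaptor protein without DNA-binding activity of its own that sits, with Ldb1 as its bridging partner, in complexes with GATA factors and with the basic helix-loop-helix proteins Tal1 or Lyl1. It is active in blood stem and progenitor cells and is shut off early in the thymus, and its persistence there is a known route to T-cell leukemia. In normal thymocytes a productive pre-T-cell receptor carries cells from DN3 to DN4, a step known for silencing of progenitor and Notch target genes and a burst of proliferation.

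A level in CPM is the gene's count per M counts in its library, after scaling, and a log2 difference of 1 is a doubling. A gene was called at an adjusted p under 0.05 (edgeR's quasi-likelihood test with Benjamini-Hochberg adjustment over 14126 genes), and errors beside log2 values are SE. Each SE was derived from that test, as the absolute log2 value divided by the square root of its F statistic. It is approximate, above all for genes near 0 in a group. Libraries with the same replicate number within a genotype were treated as a pair, so the stage dependence is the stage change within Lmo2tg pairs minus that within Wild type pairs. A difference that is equal at both stages of a genotype cancels in the stage dependence by construction, but not in the effect at a single stage. The library series differs between genotypes (the Wild type library names follow another pattern). Whether its effect is equal at both stages was not tested, and a part that is not would remain in the stage dependence. Effects at a single stage come from a fit without the pairs, so the difference between them is close to the stage dependence but need not equal it. Totals ran from 31.3 to 106.9 M counts, and no library was a copy of another of its group (counts differed with a chi-square of at least 27.1 times its degrees of freedom). Genes described beyond the 41 that the naming rule gave, Hhex and Erg among them, were picked after their values were seen. The female gene Xist and the male gene Ddx3y were both present in 3 of the 4 Wild type pairs, so those pairs held RNA of both sexes. In each of the 9 pairs the same of these genes were present at both stages.

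Lmo2tg DN4 replicate 1 stood apart in summed B-cell, double-positive thymocyte and dendritic-cell markers, but not in every list of markers of other cells. Among Lmo2tg DN4 libraries, mature T-cell markers summed highest in replicate 3 (2104 CPM, against 2070 CPM in replicate 1). Replicate 5 was highest for γδ T-cell (1009 against 675 CPM), natural killer and innate lymphoid (516 against 500 CPM) and erythroid markers (19.9 against 9.17 CPM). For myeloid markers it was replicate 4 (43.6 against 41.0 CPM). The summed level of the 13 B-cell markers was 311 CPM in it and 34.1 to 118 CPM in the other Lmo2tg DN4 libraries, against 22.8 to 33.3 CPM in Wild type DN4. Of 12 B-cell markers tested, 7 were called higher and 0 lower in stage dependence (median log2 2.96). Cd4, a double-positive thymocyte marker, was at 433, 44.8, 52.7, 13.4 and 27.3 CPM in the Lmo2tg DN4 libraries and at 11.9, 4.07, 4.91 and 4.38 CPM in Wild type DN4. The 10 double-positive markers summed to 3315 CPM in Lmo2tg DN4 replicate 1, to 1391 to 1773 CPM in the others and to 1063 to 1180.0 CPM in Wild type DN4. In stage dependence this list went both ways, with 3 of 9 tested called higher and 3 lower (median 0.26), Cd4 itself without a call (1.15, adjusted p = 0.262) and Cd8a and Cd8b1 lower. Mature T-cell markers were called higher for 7 of 12 and lower for 0 of 12, with sums of 713 to 2104 CPM in Lmo2tg DN4 and 324 to 495 CPM in Wild type DN4. Natural killer and innate lymphoid markers were called higher for 5 of 10, γδ T-cell markers for 4 of 8, dendritic-cell markers for 2 of 8 and myeloid markers for 2 of 9, each with 0 called lower, where 22.3% of all genes tested were called higher. The natural killer and innate lymphoid markers summed to 269 to 516 CPM in Lmo2tg DN4 and 381 to 528 CPM in Wild type DN4, which overlap. Of the erythroid markers 4 of 10 were at 0 in all 18 libraries, the adult globin gene Hbb-bs among them. The erythroid sum was 5.10 to 19.9 CPM in Lmo2tg DN4 and 1.70 to 2.07 CPM in Wild type DN4, without overlap, and 1 of 4 tested members was called higher. The part of such cells in the results was not tested, and counts without the Lmo2tg replicate 1 pair are given where they bear on a list. In bulk RNA, more cells of a type and more RNA per cell cannot be told apart.

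The Lmo2 effect differed between stages for 6287 genes, 44.5% of those tested. The effect was higher at DN4 for 3156 genes (22.3%) and lower at DN4 for 3131 (22.2%). The sizes were unequal, since 1639 genes were called higher and 451 lower by over 2-fold, and 425 and 13 by over 8-fold. Genes called higher had a median level of 18.6 CPM, those called lower 67.4 CPM and all genes tested 25.0 CPM. The median log2 stage dependence over all genes was 0.05. Within-pair stage changes of the genotypes did not overlap for 5251 genes (37.2%). Without the pairing, 1344 genes were called higher and 802 lower, and without the Lmo2tg replicate 1 pair 3060 and 2533.

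At DN2/3 the transgenic libraries differed from Wild type in 3519 genes (24.9%), 1879 higher (13.3%) and 1640 lower (11.6%). At DN4 they differed in 6743 genes (47.7%), 3681 higher (26.1%) and 3062 lower (21.7%). Called at both stages were 2196 genes, which is 62.4% of those called at DN2/3 and 32.6% of those called at DN4, and 2058 of them had the same direction. All 138 genes with opposite directions were stage dependent, 119 higher and 19 lower at DN4. Effects called in opposite directions differ through that selection, so this was close to given. Of the genes called higher in stage dependence, 1507 (47.8%) were higher in Lmo2tg at DN4 with no call at DN2/3, while 542 were lower in Lmo2tg at DN2/3 with no call at DN4. Of the genes called lower, 1793 (57.3%) were lower in Lmo2tg at DN4 with no call at DN2/3. The plot of the effects at both stages shows where the genes described below stand.

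**Figure D1:**
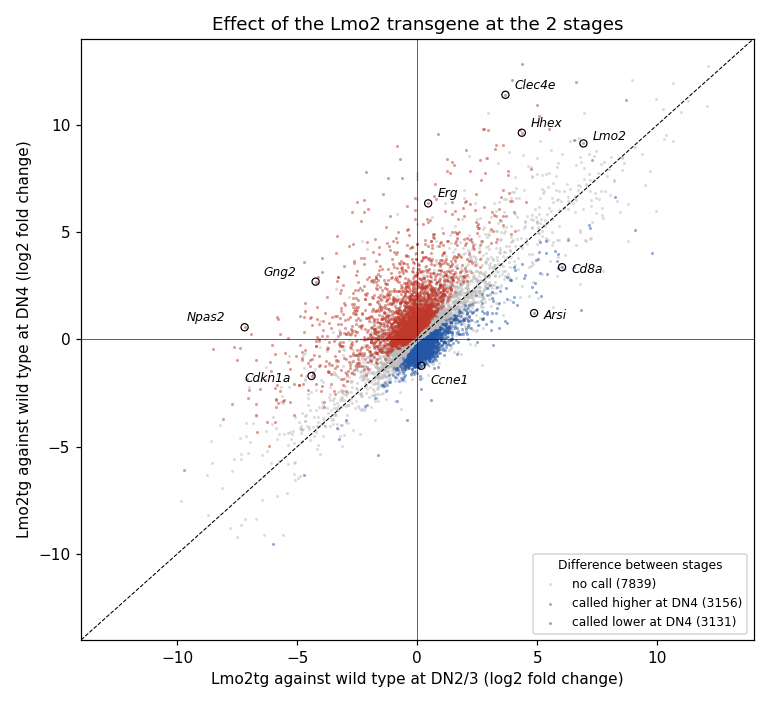
Each point is 1 of 14126 genes, with the log2 fold change of Lmo2tg against Wild type at DN2/3 on the x axis and at DN4 on the y axis, and the dashed line marks equal effects. Genes called higher at DN4 (3156, red) spread farther from the line than genes called lower (3131, blue), and genes with no call are grey.

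The same values can be read as stage changes. Between DN2/3 and DN4, 8232 genes changed in Wild type (58.3%), 3921 up (27.8%) and 4311 down (30.5%), while 4395 changed in Lmo2tg (31.1%), 2093 up (14.8%) and 2302 down (16.3%). Without the Lmo2tg replicate 1 pair, 1518 were down in Lmo2tg, and without the pairing 842 were up and 749 down. Over the 10460 genes with at least 5 CPM in some group, the median absolute log2 stage change was 0.41, 0.41, 0.47 and 0.42 in Wild type pairs 1 to 4. It was 0.31, 0.16, 0.43, 0.19 and 0.19 in Lmo2tg pairs 1 to 5. Lmo2tg pair 3 lay within the Wild type range and the other Lmo2tg pairs below it. The means were 0.43 ± 0.03 (SD, n = 4) and 0.26 ± 0.11 (SD, n = 5), which differed in a two-sided exact permutation test (p = 0.0397, where the smallest p that the 126 splits allow is 0.0159). That test takes the pairs as exchangeable, although the SDs differ. It uses the same stage changes as the stage dependence, and it cannot tell genotype apart from the library series.

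Lmo2 itself, at chr2:103957986-103981878 (mm10), checked the labels. It was at 0.402, 0.199, 0.293 and 0.177 CPM in Wild type DN2/3 and at 0, 0.171, 0.0636 and 0.0764 CPM in Wild type DN4. In Lmo2tg it was at 37.2, 29.6, 32.1, 27.9 and 34.7 CPM at DN2/3 and at 70.8, 41.2, 36.8, 36.0 and 40.1 CPM at DN4. Every transgenic library was far above every Wild type library at both stages, and Lmo2tg DN4 replicate 1 was the highest. The transgene effect was 6.92 (log2; adjusted p = 1.35e-09) at DN2/3 and 9.13 (adjusted p = 2.29e-10) at DN4, a stage dependence of 2.18 ± 0.55 (adjusted p = 0.00829). The Wild type DN4 level behind this difference rests on 22 counts over 4 libraries, and within Lmo2tg no stage change of Lmo2 was called (log2 0.44, adjusted p = 0.117).

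Among 18 tested members of the Lmo2-Ldb1 complex and its partners, 5 were called higher and 3 lower in stage dependence, with a median of 0.21. These shares, 27.8% and 16.7%, lie near the 22.3% and 22.2% of all genes tested. Lmo2 itself was among those called higher. Ldb1, the bridging subunit, was not called (0.28 ± 0.13, adjusted p = 0.113). Its mean level was 504 ± 39.2 CPM (SD) in Wild type DN2/3, 358 ± 18.6 in Wild type DN4, 394 ± 57.1 in Lmo2tg DN2/3 and 343 ± 73.9 in Lmo2tg DN4. Lyl1, a basic helix-loop-helix partner of Lmo2, was at 5.85, 4.99, 6.05 and 7.45 CPM in Wild type DN2/3 and at 0.0582, 0.428, 0.318 and 0.408 CPM in Wild type DN4. The Lmo2tg libraries had 100.4, 36.3, 90.2, 44.5 and 87.5 CPM of Lyl1 at DN2/3 and 34.1, 11.0, 60.5, 16.4 and 71.2 CPM at DN4. Both genotypes had less Lyl1 at DN4, but all Lmo2tg DN4 libraries were still above all Wild type DN2/3 libraries. The stage dependence of Lyl1 was 3.23 ± 0.44 (adjusted p = 0.000323). Tal1, the related partner, reached 3.85 (adjusted p = 0.015) at group means of at most 1.25 CPM, with the transgenic libraries lower at DN2/3 (-2.48, adjusted p = 0.0181) and no call at DN4 (1.51, adjusted p = 0.183). Gata1 and Fli1 were also called higher, at 1.26 and 0.44. Those called lower were Ssbp3, Ssbp4 and Tcf3, at -0.37, -0.69 and -0.62. Of this list 0 were called lower without Wild type replicate 2 or 3 and 1 without Wild type replicate 4, and without the pairing 3 were called higher and 1 lower. The single-stranded DNA-binding proteins Ssbp3 and Ssbp4 stabilize Ldb1, and Tcf3 encodes the E proteins that pair with Tal1 or Lyl1.

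Regulators of stem and progenitor cells showed a larger shift. Of 28 listed genes 23 were tested, and 14 were called higher and 1 lower, with a median of 2.55 beside 0.05 for all genes. These shares, 60.9% and 4.35%, stand beside 22.3% and 22.2% of all genes tested. Of those listed, Lmo2, Lyl1 and Tal1 were also on the list above. Lmo2, the gene of the transgene itself, was among those called higher. The list was chosen with earlier results of these data known. Without the Lmo2tg replicate 1 pair 13 were called higher, and without the pairing 12. The list fell by a median of 2.00 to 2.54 (log2) from DN2/3 to DN4 in the Wild type pairs, while the medians of the Lmo2tg pairs ran from -1.04 to 0.34.

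Hhex, Mycn and Dtx1 stand for genes whose level dropped at DN4 in Wild type and dropped less or not at all in Lmo2tg, and the 250 bases before their start sites (RefSeq, GRCm38.p6) are shown because Lmo2 complexes are known to occupy paired E-box and GATA motifs. Capitals mark E-box (CANNTG) and GATA matches on either strand, the latter also read as TATC, and each sequence runs 5′ to 3′ on the gene's strand. The windows are chr19:37434591-37434840 (plus strand, Hhex), chr12:12941837-12942086 (minus strand, Mycn) and chr5:120711670-120711919 (minus strand, Dtx1).
Hhex: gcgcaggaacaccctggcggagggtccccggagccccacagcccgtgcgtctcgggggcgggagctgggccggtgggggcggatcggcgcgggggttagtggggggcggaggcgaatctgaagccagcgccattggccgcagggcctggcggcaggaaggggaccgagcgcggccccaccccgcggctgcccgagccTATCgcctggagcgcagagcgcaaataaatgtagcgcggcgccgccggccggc
Mycn: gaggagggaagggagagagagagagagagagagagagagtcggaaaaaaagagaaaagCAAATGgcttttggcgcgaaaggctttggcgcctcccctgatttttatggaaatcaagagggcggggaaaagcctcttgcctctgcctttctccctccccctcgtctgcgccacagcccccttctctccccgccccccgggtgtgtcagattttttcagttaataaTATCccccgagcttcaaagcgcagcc
Dtx1: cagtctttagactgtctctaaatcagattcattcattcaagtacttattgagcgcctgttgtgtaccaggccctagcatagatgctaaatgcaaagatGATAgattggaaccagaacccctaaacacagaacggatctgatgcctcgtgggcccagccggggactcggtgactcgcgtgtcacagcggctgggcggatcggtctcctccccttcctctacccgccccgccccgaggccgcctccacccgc
Each window held 1 GATA match, and CANNTG was found once in Mycn and not in Hhex or Dtx1. Of 32851 promoters of the same length, 66.2% held CANNTG and 53.6% held GATA. Such matches describe letters in these windows and show no binding.

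Hhex, a homeobox regulator of early blood cells, was at 2.54, 3.27, 3.46 and 3.70 CPM in Wild type DN2/3 and at 0, 0.0857, 0.254 and 0 CPM in Wild type DN4. In Lmo2tg it was at 66.8, 54.8, 87.6, 56.9 and 66.4 CPM at DN2/3 and 42.6, 18.5, 149, 27.8 and 85.3 CPM at DN4. The Lmo2tg libraries of both stages lay above every Wild type library, and replicate 3 was the highest at each stage. The effect was 4.35 at DN2/3 (adjusted p = 2.53e-05) and 9.63 at DN4 (adjusted p = 1.87e-07), and the stage dependence 4.94 ± 0.78 (adjusted p = 0.000654).

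Erg, an ETS factor of stem cells and early thymocytes, was at 47.0, 48.3, 44.2 and 44.6 CPM in Wild type DN2/3 and 0.233, 0.457, 0.668 and 0.382 CPM in Wild type DN4. The Lmo2tg libraries had 84.3, 31.4, 80.0, 47.7 and 71.9 CPM at DN2/3 and 20.4, 6.72, 92.0, 12.9 and 43.6 CPM at DN4. At DN2/3 the genotypes overlapped, while at DN4 the lowest Lmo2tg library was above the highest Wild type library. No effect was called at DN2/3 (0.45, adjusted p = 0.582), the effect at DN4 was 6.34 (adjusted p = 3.67e-06), and the stage dependence was 5.41 ± 0.54 (adjusted p = 6.01e-05).

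Nfe2, the p45 subunit of the NF-E2 factor of megakaryocytes and red cells, was at 34.3, 34.3, 39.7 and 41.2 CPM in Wild type DN2/3 and 0.931, 1.29, 1.19 and 0.650 CPM in Wild type DN4. Lmo2tg libraries had 173, 57.3, 218, 95.3 and 203 CPM at DN2/3 and 52.8, 16.9, 179, 36.5 and 148 CPM at DN4. Replicates 3 and 5 kept the highest levels at DN4, and no Lmo2tg DN4 library overlapped Wild type DN4. This gave a stage dependence of 4.10 ± 0.37 (adjusted p = 3.63e-05). Mycn, a Myc family factor of progenitors, was at 20.7, 19.4, 18.5 and 18.1 CPM and then 2.36, 1.83, 1.61 and 1.34 CPM in Wild type, and at 9.86, 15.6, 13.3, 15.6 and 10.04 CPM and then 4.25, 6.63, 8.57, 7.36 and 7.95 CPM in Lmo2tg. It fell in all 9 pairs, and the Lmo2tg DN4 libraries were all above Wild type DN4. Its stage dependence was 2.55 ± 0.22 (adjusted p = 3.38e-05).

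The 14 called higher were not all raised by the transgene. Bcl11a, a B-lineage and progenitor factor, had a mean of 16.5 CPM in Wild type DN2/3 against 0.351 CPM in Lmo2tg DN2/3, and 1.44 against 0.928 CPM at DN4. Its effect was -5.50 at DN2/3 (adjusted p = 0.000903) with no call at DN4 (-0.62, adjusted p = 0.604), so that its stage dependence of 5.29 came from a lower level at DN2/3. Spi1, which encodes PU.1, went from lower (-3.19) to higher (2.29), at means of at most 0.345 CPM in Lmo2tg. Cd34, a progenitor surface protein, had no count in Wild type DN4, and its effect at DN4 exceeded that at DN2/3 by at least 22.9-fold (floor of 3 counts over the group). With Cd34 at that bound the list's median stayed at 2.55. Hoxa5, Hoxa7 and Hoxa9, homeobox genes of progenitors, were not called, with stage dependences of 2.07, 0.96 and 3.08 and adjusted p of 0.0576, 0.355 and 0.159. The member called lower was Prdm16, a zinc-finger regulator of stem cells (-0.88, adjusted p = 0.0366), whose level in Lmo2tg DN2/3 ran from 0.0261 to 53.1 CPM. Of this list 0 were called lower without the pairing and with any 1 pair left out other than Lmo2tg replicate 1 or 4.

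**Figure D2:**
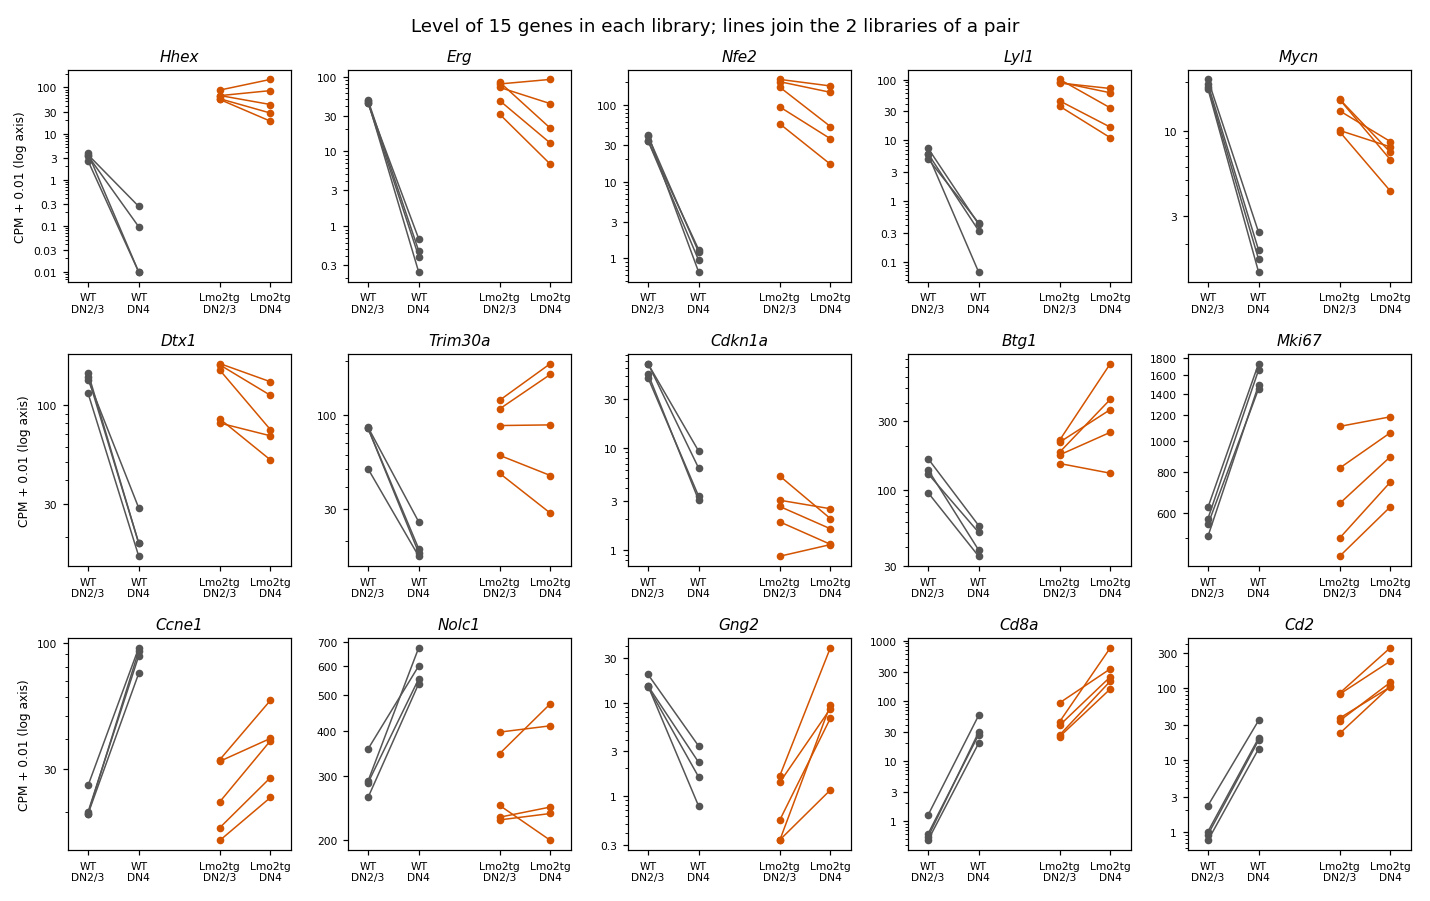
Each panel shows 1 gene in all 18 libraries, in CPM plus 0.01 on a log axis, with Wild type in grey and Lmo2tg in orange and a line joining the DN2/3 and DN4 libraries of a pair. Erg and Nfe2 dropped steeply in all 4 Wild type pairs and less, or in 1 pair for Erg not at all, in Lmo2tg, while Mki67 and Ccne1 rose by more in every Wild type pair than in any Lmo2tg pair.

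Of the 12 genes listed as markers of the DN2/3 stage, 9 (75%) were called higher and 0 lower, with a median of 1.43. Over all genes tested, 22.3% were called higher and 22.2% lower. The list holds Erg, Dtx1, Notch3, Rag1, Rag2 and Ptcra, which are also described with other lists, so it is not independent of those. Their median stage change was -1.58 to -1.96 in Wild type pairs and -0.18 to -0.94 in Lmo2tg pairs. Il2ra, which encodes the CD25 chain that marks DN2 and DN3 cells, fell in both genotypes. It went from 1333, 1627, 1583 and 1419.7 to 29.8, 55.3, 43.2 and 30.1 CPM in Wild type pairs and from 993, 672, 855, 601 and 735 to 38.8, 53.9, 128, 54.4 and 75.5 CPM in Lmo2tg pairs. All DN4 libraries were far below all DN2/3 libraries, and the genotypes overlapped at DN4. The effect was -0.95 at DN2/3 (adjusted p = 0.0149) and 0.82 at DN4 (adjusted p = 0.0217), and the stage dependence 1.73 ± 0.31 (adjusted p = 0.00139). Kit, the stem cell factor receptor, had means of 79.7 CPM at DN2/3 and 21.5 CPM at DN4 in Wild type, against 149 and 112 CPM in Lmo2tg (stage dependence 1.34, adjusted p = 0.00234). Cd44, an adhesion receptor of the earliest thymocytes and of activated T cells, fell in Wild type (-2.77) and rose in Lmo2tg (1.25), and Lmo2tg DN4 replicate 1 had the highest level, 31.3 CPM.

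Notch receptors and targets were called higher for 9 of 15 members and lower for 3, with a median of 1.13. That is 60% and 20%, beside 22.3% and 22.2% of all genes tested. The Wild type pairs fell by a median of 0.88 to 1.31 and the Lmo2tg pairs by 0.23 to 1.05, which overlap. Without the pairing 6 were called higher and 0 lower, and 2 were called lower without Wild type replicate 1, 2 or 4. Dtx1, a Notch target and ubiquitin ligase, was at 141, 116, 137 and 148 CPM in Wild type DN2/3 and 18.5, 15.7, 28.4 and 18.4 CPM in Wild type DN4. Lmo2tg libraries had 167, 154, 164, 84.6 and 80.4 CPM at DN2/3 and 133, 74.1, 113, 51.2 and 68.8 CPM at DN4. The genotypes overlapped at DN2/3 and not at DN4. The effect was -0.06 at DN2/3 (adjusted p = 0.904) and 2.12 at DN4 (adjusted p = 3.23e-05), a stage dependence of 2.20 ± 0.19 (adjusted p = 3.54e-05). Notch3, a receptor that is itself a target of Notch signals, was at 852, 811, 807 and 922 CPM and then 111, 113, 125 and 123 CPM in Wild type, and at 379.8, 304, 376, 309 and 371 CPM and then 91.8, 139, 114, 167 and 204 CPM in Lmo2tg. Here the genotypes were apart at DN2/3, with Lmo2tg lower (-1.28, adjusted p = 1.81e-05), and overlapped at DN4 (0.28, adjusted p = 0.178), giving 1.52 ± 0.23 (adjusted p = 0.000486). Hes1 and Hey1, transcriptional repressors, were called higher at 1.42 and 1.57. The members called lower were Myc, Nrarp, a feedback inhibitor, and Trib2, at -0.86, -0.62 and -0.63.

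Genes of T-lineage commitment and the pre-T-cell receptor moved both ways, 14 of 30 higher and 5 lower, with a median of 0.33. That is 46.7% and 16.7%, beside 22.3% and 22.2% of all genes tested. Without the pairing 7 were called higher and 3 lower. Spib, an ETS factor that peaks at DN3, was at 35.2, 46.8, 47.8 and 52.4 CPM in Wild type DN2/3 and 2.01, 2.57, 2.23 and 2.92 CPM in Wild type DN4. It was at 26.8, 10.1, 28.8, 9.60 and 29.5 CPM in Lmo2tg DN2/3 and 14.98, 6.86, 8.75, 6.86 and 15.2 CPM in Lmo2tg DN4. Lmo2tg was below Wild type in every DN2/3 library and above it in every DN4 library. For Spib the stage dependence was 3.31 ± 0.23 (adjusted p = 1.63e-05). Cd3g, Rag1, Rag2 and Ptcra, which serve T-cell receptor assembly and signaling, were called higher at 1.42, 1.18, 1.27 and 1.13. All of these were lower in Lmo2tg at DN2/3 (effects of -1.44, -1.25, -2.45 and -2.47), and at DN4 the effects were -0.01, -0.01, -1.09 and -1.25, with a call for Rag2 and Ptcra. Members called lower included Tcf7, Lef1, Zap70 and Cd2, at -0.66, -0.68, -1.08 and -2.40. Cd2, an adhesion receptor of T cells, was at 2.29, 0.897, 0.991 and 0.744 CPM and then 35.0, 18.6, 19.9 and 14.1 CPM in Wild type, and at 83.8, 81.1, 23.1, 37.7 and 34.7 CPM and then 358, 234, 104, 102 and 118 CPM in Lmo2tg. It rose in all 9 pairs, and all Lmo2tg libraries of a stage were above all Wild type libraries of that stage. The effect was 5.42 at DN2/3 and 3.07 at DN4 (-2.40 ± 0.18, adjusted p = 1.68e-05).

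The cell cycle list ran the other way as a group. Of 35 members, 32 were called lower and 1 higher, with a median of -0.998, and 32 were called lower with any pair left out. The shares, 91.4% and 2.86%, stand beside 22.2% and 22.3% of all genes tested. Without the pairing 15 were called lower. Wild type pairs rose by a median of 1.22, 1.27, 1.33 and 1.26 from DN2/3 to DN4, and Lmo2tg pairs changed by 0.17, -0.05, -0.01, 0.39 and 0.48. Only 3 members were higher and 1 lower in Lmo2tg at DN2/3, whereas 25 were lower and 1 higher at DN4. Among all genes tested, 13.3% were higher and 11.6% lower at DN2/3, and 21.7% were lower and 26.1% higher at DN4. Ccne1, cyclin E1 of the entry into S phase, was at 25.7, 19.6, 19.6 and 19.95 CPM in Wild type DN2/3 and 95.8, 75.0, 93.0 and 88.6 CPM in Wild type DN4. Lmo2tg libraries had 15.2, 32.3, 17.1, 32.8 and 21.96 CPM at DN2/3 and 22.9, 40.3, 27.7, 57.9 and 39.4 CPM at DN4. The genotypes overlapped at DN2/3, and at DN4 every Lmo2tg library was below every Wild type library. The effect was 0.17 at DN2/3 (adjusted p = 0.68) and -1.23 at DN4 (adjusted p = 0.000928), a stage dependence of -1.41 ± 0.13 (adjusted p = 4.33e-05).

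Ccna2, cyclin A2 of S phase and mitosis, was at 94.2, 80.7, 95.9 and 98.7 CPM and then 303, 280.0, 339 and 329 CPM in Wild type, and at 67.8, 218, 121, 191 and 122 CPM and then 99.7, 208, 153, 267 and 184 CPM in Lmo2tg. Replicates 2 and 4 were the highest Lmo2tg libraries at both stages, and all Lmo2tg DN4 libraries were below all Wild type DN4 libraries. Its stage dependence was -1.38 ± 0.13 (adjusted p = 4.69e-05). Mki67, the proliferation marker Ki-67, had means of 564 ± 48.4 and 1583 ± 135 CPM (SD, n = 4) in Wild type, against 702 ± 271 and 902 ± 228 CPM (SD, n = 5) in Lmo2tg, a stage dependence of -1.08 (adjusted p = 6.01e-05). The mitotic genes Plk1 and Cdc20 had -1.72 and -1.63, and the replication helicase subunit Mcm5 had -1.16. The member called higher was Ccnd2, cyclin D2, at 1.08 (adjusted p = 0.0165), with means of 293 and 95.7 CPM in Wild type, against 133 and 106.6 CPM in Lmo2tg.

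Inhibitors of the cell cycle were called higher for 7 of 16 and lower for 3, with a median of 0.38. That is 43.75% and 18.75%, beside 22.3% and 22.2% of all genes tested. Without the pairing 4 were called higher and 2 lower, and without Wild type replicate 1 the median was 0.17. Cdkn1a, the inhibitor p21, was at 52.5, 47.9, 65.7 and 66.0 CPM in Wild type DN2/3 and 3.06, 3.34, 9.22 and 6.29 CPM in Wild type DN4. It was at 0.863, 5.28, 1.88, 3.06 and 2.66 CPM in Lmo2tg DN2/3 and 1.12, 2.02, 1.13, 2.53 and 1.61 CPM in Lmo2tg DN4. Lmo2tg was lower at both stages, without overlap. The effect was -4.40 at DN2/3 (adjusted p = 9.4e-07) and -1.70 at DN4 (adjusted p = 0.00335), so the stage dependence of 2.94 ± 0.34 (adjusted p = 0.000127) is a smaller loss at DN4. Btg1, an antiproliferative gene of resting lymphocytes, fell in the 4 Wild type pairs, from 129, 164, 138 and 95.7 to 50.8, 56.7, 38.3 and 34.8 CPM. In Lmo2tg it went from 220.2, 213, 182, 152 and 174 to 743, 358, 421, 130.1 and 249 CPM, higher at DN4 in 4 of 5 pairs, with replicate 1 the highest. Its stage dependence was 2.35 ± 0.32 (adjusted p = 0.000294). Cdkn2a, which encodes p16 and p19Arf, was higher in Lmo2tg at both stages (7.18 and 6.91), and its stage dependence was not called (-0.45 ± 0.61, adjusted p = 0.579).

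Genes of Myc and ribosome biogenesis were called lower for 19 of 23 and higher for 3, with a median of -0.68. No member was called in Lmo2tg against Wild type at DN2/3, while 13 were lower and 3 higher at DN4. Among all genes tested, 24.9% were called at DN2/3, and at DN4 21.7% were lower and 26.1% higher. Wild type pairs rose by 0.39 to 0.63 and Lmo2tg pairs changed by -0.43 to 0.21. Without the pairing 1 member was called lower. Nolc1, a nucleolar chaperone, was at 356, 262, 291 and 287 CPM in Wild type DN2/3 and 602, 538, 676 and 555 CPM in Wild type DN4. Lmo2tg libraries had 249, 396, 227, 346 and 231 CPM at DN2/3 and 199.5, 412, 237, 474 and 246 CPM at DN4. Replicates 2 and 4 were again the highest Lmo2tg libraries, and all Lmo2tg DN4 libraries were below Wild type DN4. Nolc1 had a stage dependence of -0.92 ± 0.15 (adjusted p = 0.000677), and without the pairing its adjusted p was 0.0711. Fbl, the rRNA methyltransferase fibrillarin, had -1.05 and nucleolin, Ncl, -0.77. Myc itself was called lower at -0.86 (adjusted p = 0.00845), and Mycn, with Mxd1 and Mxd4, which encode antagonists of Myc, were the members called higher, at 2.55, 1.16 and 1.21.

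Glycolysis genes were called lower for 12 of 19 (63.2%) and higher for 2 (10.5%), with a median of -0.79, and without the pairing for 4 and 1. With the pairing, 22.2% of all genes tested were called lower and 22.3% higher. Their median change was 0.49 to 0.94 in Wild type pairs and -0.47 to 0.22 in Lmo2tg pairs. Slc16a1, the lactate transporter MCT1, was at 137, 159.8, 145 and 156 CPM and then 319.9, 325, 302 and 365 CPM in Wild type. In Lmo2tg it was at 247, 413, 259.7, 279 and 197 CPM and then 187, 394, 289, 355 and 214 CPM. It rose in every Wild type pair, and the genotypes overlapped at DN4. Lmo2tg was higher at DN2/3 (0.90, adjusted p = 0.00394) with no call at DN4 (-0.19, adjusted p = 0.468), and the stage dependence was -1.10 ± 0.14 (adjusted p = 0.0002). Pgk1, phosphoglycerate kinase, had -0.96 ± 0.11 (adjusted p = 0.0001), an uncertain value because reads of its processed copies may be counted with it or lost. Ldha, lactate dehydrogenase A, had -1.03, with an effect of 0.32 at DN2/3 (adjusted p = 0.262) and -0.68 at DN4 (adjusted p = 0.00878). The members called higher were Aldoc and Slc16a3.

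Interferon-response genes were called higher for 21 of 24 (87.5%) and lower for 0, with a median of 1.42. Over all genes tested the shares were 22.3% and 22.2%. With 1 pair left out, 20 to 21 were called higher, and without the pairing 9. Wild type pairs fell by a median of 1.20 to 1.80, and Lmo2tg pairs changed by 0.75, -0.28, 0.34, -0.43 and 0.05. Trim30a, an interferon-induced ubiquitin ligase, was at 50.4, 85.9, 84.7 and 84.7 CPM in Wild type DN2/3 and 16.4, 25.5, 17.2 and 18.1 CPM in Wild type DN4. Lmo2tg libraries had 122, 59.9, 109, 47.5 and 87.9 CPM at DN2/3 and 195, 46.3, 169, 28.5 and 88.6 CPM at DN4. Replicates 1 and 3 were higher at DN4 and replicates 2 and 4 lower, and all Lmo2tg DN4 libraries were above Wild type DN4. The stage dependence was 2.03 ± 0.29 (adjusted p = 0.000362). Irf7, an interferon-regulatory factor, was at 19.8, 21.9, 23.9 and 21.3 CPM and then 7.74, 7.56, 7.79 and 7.44 CPM in Wild type, and at 36.6, 19.2, 23.5, 11.6 and 27.5 CPM and then 67.1, 16.5, 29.3, 8.70 and 36.7 CPM in Lmo2tg. Lmo2tg DN4 replicate 1 was the highest library and replicate 4 lay just above Wild type DN4. Its stage dependence was 1.71 ± 0.23 (adjusted p = 0.000285). Mx1 and Oas2, antiviral effectors, had 2.07 and 2.20. Of the immediate early and heat shock genes, which respond to cell handling as well as to signals, 13 of 15 were called higher and 1 lower (median 1.39). These shares, 86.7% and 6.67%, also stand beside 22.3% and 22.2% of all genes tested. Their sums were 1058 to 1555 CPM in Wild type DN4 and 2617 to 4186 CPM in Lmo2tg DN4, and the part of handling was not tested.

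Cytokine receptors were called higher for 13 of 25 (52%) and lower for 1 (4%), with a median of 0.80, and without the pairing for 8 and 1. With the pairing, 22.3% of all genes tested were called higher and 22.2% lower. At DN4 16 were higher in Lmo2tg and 1 lower, against 4 and 3 at DN2/3. Over all genes tested, 26.1% were higher and 21.7% lower at DN4, against 13.3% and 11.6% at DN2/3. The DN2/3 counts of the list are near those shares. Il17rb, a receptor for interleukin 25, was at 250.5, 305, 309.7 and 313 CPM in Wild type DN2/3 and 70.2, 103, 94.1 and 94.2 CPM in Wild type DN4. Lmo2tg libraries had 154, 109, 161, 102 and 177 CPM at DN2/3 and 102, 75.1, 116, 56.9 and 117 CPM at DN4. Lmo2tg was below Wild type in all DN2/3 libraries, and the genotypes overlapped at DN4. For Il17rb the stage dependence came to 1.10 ± 0.10 (adjusted p = 3.95e-05). Il10ra, the ligand-binding chain of the interleukin 10 receptor, was at 58.5, 72.2, 71.4 and 70.8 CPM and then 14.5, 20.7, 17.6 and 20.02 CPM in Wild type, and at 103, 44.3, 96.3, 56.3 and 82.0 CPM and then 51.7, 25.0, 99.6, 37.1 and 75.3 CPM in Lmo2tg. The genotypes overlapped at DN2/3 and not at DN4, giving 1.42 ± 0.20 (adjusted p = 0.000367). Il4ra and Tgfbr2, receptors for interleukin 4 and TGF-β, had 2.78 and 1.59, and the member called lower was Il9r, at -1.48. Flt3, shared with the progenitor list, was not called (0.91, adjusted p = 0.54).

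In the Bcl2 family 6 of 15 tested members were called higher and 4 lower, with a median of 0.48. These shares are 40% and 26.7%, beside 22.3% and 22.2% of all genes tested, so the share called lower is near that of all genes. Bmf, a BH3-only promoter of cell death, was at 58.2, 75.2, 70.5 and 69.1 CPM in Wild type DN2/3 and 20.1, 24.9, 18.4 and 16.3 CPM in Wild type DN4. Lmo2tg libraries had 48.0, 34.3, 49.0, 45.1 and 61.2 CPM at DN2/3 and 69.5, 49.9, 47.1, 38.2 and 68.4 CPM at DN4. It fell in all Wild type pairs, and Lmo2tg DN4 lay above Wild type DN4 without overlap. Bmf had a stage dependence of 1.98 ± 0.19 (adjusted p = 4.46e-05). Bcl2, the survival factor, had means of 166 ± 31.6 and 32.1 ± 7.22 CPM (SD, n = 4) in Wild type, against 92.4 ± 15.1 and 79.1 ± 39.7 CPM (SD, n = 5) in Lmo2tg. It was lower in Lmo2tg at DN2/3 (-0.85, adjusted p = 0.0348) and higher at DN4 (1.30, adjusted p = 0.00199), with 2.02 ± 0.28 (adjusted p = 0.000316). Bcl2a1d, a survival gene with near-identical copies whose reads may be split among them, was at 4.49, 1.41, 1.22, 0.143 and 0.595 CPM in Lmo2tg DN4, highest in replicate 1 and within the Wild type range in replicate 4, and at group means of 0.109, 0.0933 and 0.0550 CPM elsewhere (5.20 ± 0.61, adjusted p = 0.000136). Those called lower included Bid, Bax and Bak1, which promote death at the mitochondrion, at -1.16, -0.52 and -0.36, and Bad at -0.58. The count of 4 called lower was 1 without the pairing or without Wild type replicate 3 or 4, and 2 without Wild type replicate 2 or Lmo2tg replicate 2 or 5. The count of 6 called higher was 4 without the pairing or without Wild type replicate 3 or 4.

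**Figure D3:**
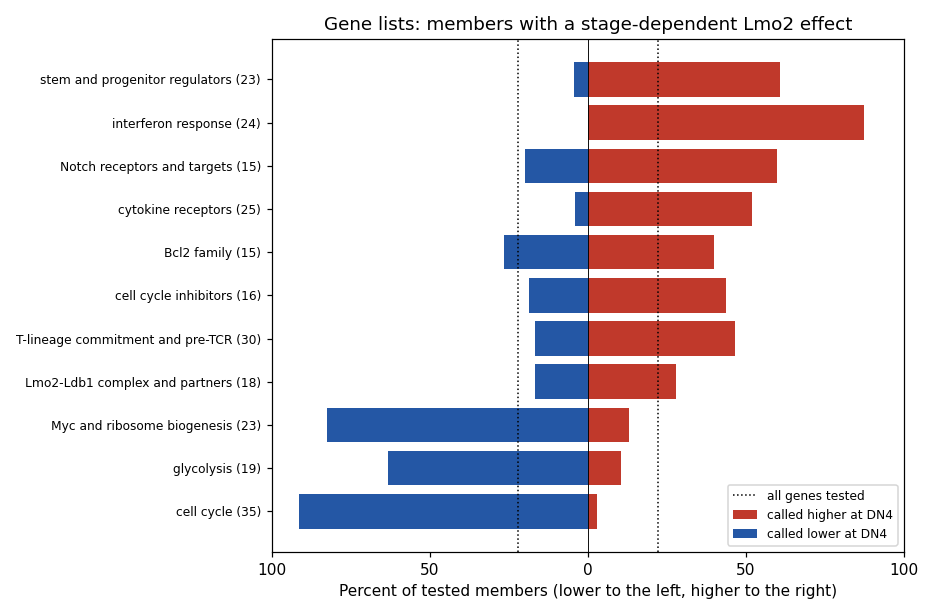
Bars give the percent of tested members of each list, with their number in brackets, whose Lmo2 effect was called higher (red, to the right) or lower (blue, to the left) at DN4 than at DN2/3. Dotted lines mark the share of all genes tested, 22.3% higher and 22.2% lower. Interferon, progenitor and Notch lists reach farthest to the right, and cell cycle, ribosome biogenesis and glycolysis lists to the left.

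**Figure D4:**
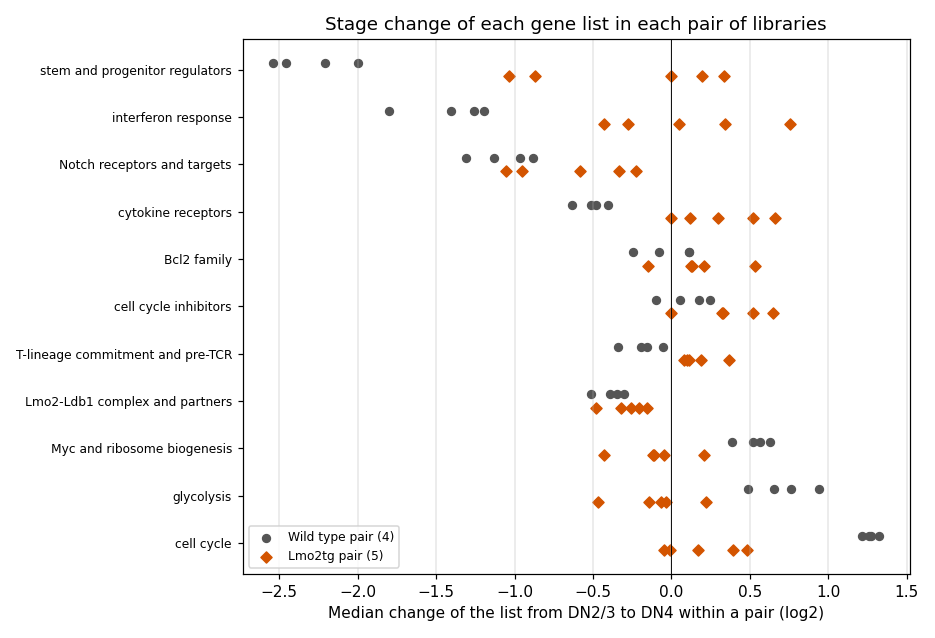
Each point is the median log2 change of a list from DN2/3 to DN4 within 1 pair of libraries, grey circles for the 4 Wild type pairs and orange diamonds for the 5 Lmo2tg pairs. The genotypes do not overlap in the cell cycle, glycolysis, ribosome biogenesis, T-lineage, cytokine receptor, interferon and progenitor lists, and they overlap in the other 4.

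Among the genes of largest positive stage dependence that the naming rule gave were Ubqlnl, Clec4e and Ctla2b, whose Wild type DN4 level was at or near 0. Ubqlnl, a ubiquilin-like gene at chr7:104148259-104150556, had no count in any Wild type DN4 library. Ubqlnl was at 7.46, 1.51, 6.08, 2.54 and 3.97 CPM in Lmo2tg DN2/3 and 10.4, 2.04, 37.4, 8.01 and 14.1 CPM in Lmo2tg DN4, against 0.144, 0.133, 0.304 and 0.230 CPM in Wild type DN2/3. Lmo2tg exceeded Wild type in every library, with replicate 3 the highest at DN4. The level was 21.3-fold higher in Lmo2tg at DN2/3 and at least 1343-fold higher at DN4, so the effects differed by at least 63.1-fold (adjusted p = 0.00125). How reads shared by related genes were counted is not known here, so these values are uncertain.

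Clec4e, a C-type lectin receptor of myeloid cells, was at 1.44, 1.89, 1.94 and 1.88 CPM in Wild type DN2/3 and 0, 0, 0 and 0.0509 CPM in Wild type DN4, the latter from 4 counts in 1 library. Lmo2tg libraries had 29.4, 10.04, 38.0, 7.98 and 28.4 CPM at DN2/3 and 31.8, 8.17, 119.6, 9.17 and 48.6 CPM at DN4. All Lmo2tg libraries were above all Wild type libraries, and replicate 3 was the highest at each stage. The stage dependence was 7.29 ± 0.70 (adjusted p = 4.83e-05). Ctla2b, a member of a family of near-identical protease inhibitors, had 6.48 ± 0.90 (adjusted p = 0.000336) with 4 counts over Wild type DN4. Each gene's Wild type DN4 counts lay in 1 library. Without that library's pair both were still called (adjusted p = 0.000615 for Clec4e without Wild type replicate 4 and 0.00106 for Ctla2b without Wild type replicate 1), but the fitted size then depends on the prior count, since no Wild type DN4 count is left. These sizes were 10.2 for Clec4e and 9.59 for Ctla2b, farther from the values above than their SE. The SE therefore understates how uncertain such sizes are.

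Npas2 and Olfr1507, also among these genes, were lower in Lmo2tg at DN2/3 with no call at DN4. Npas2, a paralog of the circadian factor Clock, was at 5.15, 6.31, 7.77 and 8.61 CPM in Wild type DN2/3 and 0.349, 0.200, 0.350 and 0.229 CPM in Wild type DN4. It was at 0.0261, 0.0575, 0, 0 and 0.179 CPM in Lmo2tg DN2/3 and 0.7104, 0.240, 0.566, 0.143 and 0.417 CPM in Lmo2tg DN4. The genotypes were far apart at DN2/3 and overlapped at DN4. The effect was -7.19 at DN2/3 (adjusted p = 7.44e-07) and 0.57 at DN4 (adjusted p = 0.43), a stage dependence of 7.88 ± 0.76 (adjusted p = 4.77e-05). Olfr1507, an olfactory receptor gene, was high in Wild type DN2/3 alone, with group means of 5.02 CPM there, 0.0504 in Wild type DN4, 0.0829 in Lmo2tg DN2/3 and 0.0972 in Lmo2tg DN4 (6.66 ± 0.79, adjusted p = 0.000209). Both genes were near 0 in Lmo2tg DN2/3, so their fitted sizes depend on the prior count. With 1 pair left out, the stage dependence ran from 7.38 to 8.79 for Npas2 and from 6.43 to 7.20 for Olfr1507.

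Gng2, a G protein γ subunit, changed sign between stages. It was at 15.1, 19.99, 15.1 and 14.7 CPM and then 2.27, 3.40, 0.763 and 1.58 CPM in Wild type, and at 1.62, 1.38, 0.322, 0.326 and 0.538 CPM and then 38.7, 8.59, 9.44, 1.14 and 6.79 CPM in Lmo2tg. All Wild type pairs went down and all Lmo2tg pairs went up, with replicate 1 the highest and replicate 4 within the Wild type range at DN4. The effect was -4.23 at DN2/3 (adjusted p = 0.000397) and 2.69 at DN4 (adjusted p = 0.00712), a stage dependence of 6.86 ± 0.57 (adjusted p = 2.6e-05). Gpr183, an oxysterol receptor that guides lymphocytes, had -2.08 and 4.55, and Scel, which encodes sciellin, -3.08 and 2.55, for stage dependences of 6.42 ± 0.60 and 5.74 ± 1.05 (adjusted p = 4.33e-05 and 0.00146). The opposite reversal was smaller. Hmmr, a mitotic spindle and hyaluronan-binding protein, was at 31.3, 36.8, 43.1 and 40.6 CPM and then 114, 117, 125 and 121 CPM in Wild type, and at 35.7, 92.6, 58.8, 74.3 and 51.7 CPM and then 50.02, 90.1, 82.2, 96.9 and 77.3 CPM in Lmo2tg. Lmo2tg was higher at DN2/3 (0.72, adjusted p = 0.0219), with overlap, and lower at DN4 (-0.59, adjusted p = 0.0318), without overlap. Hmmr, Depdc1b, another proliferation gene, and Samd1, a chromatin protein of CpG islands, had -1.29 ± 0.13, -1.32 ± 0.18 and -1.32 ± 0.17, with adjusted p of 7.09e-05, 0.00033 and 0.000232.

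The 7 largest negative values under the same rule belonged to genes that were higher in Lmo2tg at DN2/3 and rose with stage in Wild type. Cd8a and Cd8b1 encode the chains of CD8, the coreceptor that cells gain after DN4. Cd8a was at 1.24, 0.465, 0.597 and 0.531 CPM in Wild type DN2/3 and 57.1, 19.7, 27.2 and 30.0 CPM in Wild type DN4. Lmo2tg libraries had 45.0, 92.5, 27.0, 39.2 and 25.4 CPM at DN2/3 and 762, 340.0, 212, 251 and 157 CPM at DN4. It rose in all 9 pairs, and Lmo2tg was above Wild type at both stages without overlap. The effect was 6.03 at DN2/3 (adjusted p = 1.05e-06) and 3.36 at DN4 (adjusted p = 8.54e-05), a stage dependence of -2.73 ± 0.39 (adjusted p = 0.000357). For Cd8b1 the effects were 3.07 and 0.44 (adjusted p = 2.42e-05 and 0.325), and the stage dependence -2.72 ± 0.38 (adjusted p = 0.000351). Lmo2tg DN4 replicate 1 had the highest Cd8a, Cd8b1 and Cd4, and without its pair the stage dependence was -2.99 for Cd8a and -3.01 for Cd8b1, both called.

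Arsi, an arylsulfatase, was at 3.45, 1.66, 3.93 and 3.40 CPM in Wild type DN2/3 and 23.1, 14.8, 36.3 and 27.2 CPM in Wild type DN4. Lmo2tg libraries had 160.3, 72.7, 45.1, 26.8 and 150.4 CPM at DN2/3 and 51.0, 68.4, 28.8, 41.1 and 106.6 CPM at DN4. At DN2/3 all Lmo2tg libraries were above all Wild type libraries, and at DN4 replicate 3 fell within the Wild type range. The effect was 4.86 at DN2/3 (adjusted p = 5.1e-06) and 1.22 at DN4 (adjusted p = 0.0412), and the stage dependence -3.48 ± 0.36 (adjusted p = 7.57e-05). Pdlim4, an actin-associated PDZ and LIM protein, and Cnnm1, a member of a family of magnesium transport mediators, had -3.33 ± 0.48 and -2.81 ± 0.33 (adjusted p = 0.000402 and 0.000124). The class I-like histocompatibility genes H2-Q1 and H2-Q2, at chr17:35320405-35325099 and chr17:35342242-35346762, had -3.11 ± 0.31 and -3.03 ± 0.20 (adjusted p = 5.81e-05 and 1.6e-05). These 2 values are uncertain, since reads may be shared among near-identical class I genes.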

How the data were processed

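RNA of mouse thymocytes was sequenced in 28 libraries (paired-end TruSeq, per the labels' protocols), and gene counts were deposited as 1 table, in which the authors had counted reads with featureCounts 1.4.6-p3 after STAR 2.5.2a alignment to mm10, per the submitters' processing notes. The annotation, strand setting and treatment of multimapping reads were not given in the sources used here, so antisense and near-identical genes cannot be told apart. Positions come from GENCODE M21, which matched 23376 of 24421 symbols. Columns were matched to libraries by name and groups taken from the labels. The 10 Ldb1-deleted libraries entered only an alternative fit.

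Genes were kept by filterByExpr and scaled by TMM, and edgeR 4.0.16 (R 4.3.3) fitted a quasi-likelihood model to the raw counts, tested two-sided with Benjamini-Hochberg adjustment over all 14126 genes kept. The stage dependence and the stage changes came from a fit with the replicate number within genotype as a block. Effects at a single stage came from a fit of the 4 groups without it, since genotype cannot be estimated within blocks. The labels give the numbers and do not say what they mark. Deviations from group means of same-numbered libraries correlated at 0.11 to 0.23 in Wild type and 0.47 to 0.59 in Lmo2tg, each library best with its own number, so the numbers were taken as pairs.

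Named genes were Lmo2, Ldb1, the 7 largest called values in each direction with at least 5 CPM in the highest group and no overlap of within-pair changes, the 3 largest in each direction among genes with opposite effects at the stages, and the 2 called members of smallest adjusted p in each list, leaving out unnamed genes and receptor segments. Some genes that these rules or lists hold are not reported here. The members, lists and markers were chosen with earlier results of these data known. Within-pair changes used log2 CPM with a prior count of 0.5, and floors 3 counts over a group. Totals ran from 31.3 to 106.9 M counts. The SE of each log2 value was derived from the F statistic of its test, which includes the spread between libraries. Tested on simulated data for the stage dependence (13952 genes), the fit recovered 18.2% of 66 genes changed 1.5-fold, 47% changed 2-fold and 78.8% changed 4-fold, with 5.9% false among its calls. The simulation changed a far smaller share of genes than the 44.5% called here. The adjustment depends on that share, so these rates do not describe the calls reported. Alternatives were no pairing, all 28 libraries, the compared groups only, RLE and upper-quartile scaling, other filters, DESeq2 1.42.0, voom with limma 3.58.1 and each pair left out. Promoters were taken from RefSeq (GRCm38.p6), with an entry for 28 of the 41 named genes.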

Additional observations from a re-analysis of the deposited data

Results flagged for a closer look

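In 4 of 82 sets of within-pair stage changes 1 pair stood apart from the rest of its genotype, and chance sets a value apart in about 1 in 20 sets. Ldb1 changed by -0.68 (log2) in Lmo2tg pair 3, against -0.17 to -0.02 in the other Lmo2tg pairs. Clec4e changed by -5.04 in Wild type pair 4, the only one with Wild type DN4 counts, against -8.06 to -7.63 in the others. Ctla2b changed by 1.84 in Lmo2tg pair 3, against -0.67 to -0.06 in the other Lmo2tg pairs. Cnnm1 changed by 2.67 in Wild type pair 1, against 3.36 to 3.37 in the others.

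Of the 41 named genes, 40 had an Lmo2 effect that differed between the stages by the test of the difference itself, with the exception of Ldb1. Apart from Lmo2 and Ldb1, the naming rule took only genes called in that test, so the choice largely set this count. Of all genes tested 44.5% were called. The differences (log2, DN4 minus DN2/3) of genes of largest positive value were 8.10 for Ubqlnl, 7.88 for Npas2, 7.29 for Clec4e, 6.86 for Gng2, 6.66 for Olfr1507 and 6.48 for Ctla2b, and for Lmo2 itself 2.18. The largest negative differences were -3.48 for Arsi, -3.33 for Pdlim4, -3.11 for H2-Q1, -3.03 for H2-Q2, -2.81 for Cnnm1, -2.73 for Cd8a and -2.72 for Cd8b1. Genes with opposite effects at the stages had 6.42 for Gpr183, 5.74 for Scel, -1.32 for Depdc1b, -1.32 for Samd1 and -1.29 for Hmmr. Regulators of progenitors had 3.23 for Lyl1, 2.55 for Mycn and 4.10 for Nfe2. T-lineage and Notch genes had 3.31 for Spib, -2.40 for Cd2, 2.20 for Dtx1 and 1.52 for Notch3. Cell cycle genes and their inhibitors had -1.41 for Ccne1, -1.38 for Ccna2, 2.94 for Cdkn1a and 2.35 for Btg1. Nolc1 had -0.92, Pgk1 -0.96 and Slc16a1 -1.10. Receptors, Bcl2 family and interferon-response genes had 1.10 for Il17rb, 1.42 for Il10ra, 1.98 for Bmf, 5.20 for Bcl2a1d, 1.71 for Irf7 and 2.03 for Trim30a.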

How the results depend on the processing

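Without the replicate block, that is without the pairing, the stage dependence was called higher for 1344 genes and lower for 802, and 2142 of these 2146 genes, 99.8%, were called in the same direction with it. Lmo2tg stage changes without the replicate block were 842 up and 749 down. With the compared groups only, 2028 genes were lower in Lmo2tg at DN4. With 1 pair left out in turn, the stage dependence gave 2450 to 3370 genes higher and 2192 to 3360 lower, the effect at DN2/3 1318 to 1947 and 1193 to 1870, that at DN4 2927 to 4157 and 2057 to 3591, the Wild type stage change 3075 to 4011 up and 3648 to 4750 down, and the Lmo2tg stage change 1442 to 2355 up and 1518 (without Lmo2tg replicate 1) to 2707 (without Lmo2tg replicate 4) down. The effects at a single stage could not be blocked, and with the replicate as a random block in voom they gave 1838 higher and 2025 lower at DN2/3 and 3309 and 3413 at DN4. DESeq2 called 3548 genes higher and 3276 lower, with 6263 calls shared. Apart from Lmo2 and Ldb1, the 41 named genes were taken from those called in the main fit. Of 655 recomputed values of these 41 genes 652 kept direction and side of the threshold. Ldb1 passed it in 2, Nolc1 missed it without the replicate block (adjusted p = 0.0711, edgeR), and 0 reversed. The pairing therefore sets how many genes are called. The library series differs between genotypes, so effects at a single stage cannot be told apart from it. A part of it that differs between stages would also enter the stage dependence, and this was not tested. Depth limits genes near 0 in a group, such as Npas2 and Olfr1507 in Lmo2tg DN2/3 and Clec4e in Wild type DN4. In Wild type DN4, 3 counts over the group are 0.0107 CPM. Fitted values of such genes depend on the prior count. The part of other cell types, sex and handling was not tested.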

Other observations

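Cpa3, a carboxypeptidase of mast cells and of early progenitors, was at 59.1, 104, 99.5 and 96.3 CPM in Wild type DN2/3 and 1.75, 5.44, 1.86 and 3.13 CPM in Wild type DN4. It was at 762, 378, 843, 458 and 739 CPM in Lmo2tg DN2/3 and 511, 134, 1541, 197 and 869 CPM in Lmo2tg DN4, above Wild type in every library of each stage. Its stage dependence was 4.53 ± 0.49 (adjusted p = 8.28e-05, edgeR). Of 9 mast cell and basophil markers, 5 were at 0 in all 18 libraries.

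In the fit of all 28 libraries, the stage changes of the Lmo2tg libraries that lack Ldb1 could be read beside the others as values. The median log2 change of the progenitor list was -2.28, -0.18 and -1.78 in Wild type, Lmo2tg and the libraries without Ldb1, in this order. For the cell cycle list the medians were 1.26, 0.16 and 0.88, and for the interferon-response list -1.40, 0.03 and -0.42, in the same order. The Notch list had -1.12, -0.58 and -1.09, and the ribosome biogenesis list 0.54, -0.17 and 0.04. The cytokine receptor list had -0.43, 0.40 and -0.25, and the glycolysis list 0.72, -0.05 and 0.25. For the T-lineage list the values were -0.25, 0.19 and 0.18, those of Lmo2tg and of the libraries without Ldb1 being close. The list of the Lmo2-Ldb1 complex had -0.45, -0.49 and -0.26, the cell cycle inhibitors 0.00, 0.34 and 0.24 and the Bcl2 family 0.14, 0.19 and 0.04. No test of these differences was made.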
